A study of Mus musculus with 12 samples.

Results

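Collagen chain genes were followed across the lungs of bleomycin-injured mice before and after a week in which either saline or polymer nanoparticles had been given. A gene was counted as a collagen chain when its symbol in the deposited gene tables was Col, a number, the letter a and a number, which leaves out enzymes and lectins with similar names. Of the 55491 genes listed, 44 met that rule and 40 of these had enough counts to be tested. They were sorted by textbook class into 11 fibrillar chains, 9 network-forming chains, 9 chains of fibril-associated collagens with interrupted triple helices (FACIT), 6 microfibrillar chains of type VI, and 9 others.

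All 12 mice were male wild-type C57BL/6J animals, 10 weeks old, that had received bleomycin (0.0125 U per mouse) by the oropharyngeal route, the standard way to provoke lung fibrosis. The Day 14 group (4 mice) had no further treatment and was sampled 14 days after bleomycin, the pre-treatment state. The Day 21 vehicle group (4 mice) was given intravenous saline, and the Day 21 NP group (4 mice) was given intravenous nanoparticles made of poly(lactide-co-glycolide) and coated in the polymer poly(ethylene-alt-maleic anhydride), mean diameter 609.22 nm ± 15.30. The particles were injected behind the eye at 2 mg per dose, daily from day 14 to day 18, for 5 doses, and both groups were sampled at day 21. Uninjured lungs were not analysed here, so day 14 is the only reference. RNA came from homogenates of the lung lobes without trachea or large airways, so a level reflects all cells of the lung, and fewer cells of a type cannot be told apart from less RNA per cell.

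Collagens are triple-helical proteins rich in glycine and hydroxyproline. Fibrillar collagens such as types I and III form the rope-like fibrils that accumulate in scars, while type IV builds the sheet-like network of basement membranes beneath alveolar epithelium and capillaries. FACIT collagens decorate fibril surfaces, type VI forms beaded filaments around cells, and the remaining classes include transmembrane collagens and the multiplexins of basement membrane zones. In pulmonary fibrosis the fibroblasts and myofibroblasts are known as the main source of fibrillar chains.

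The DNA just upstream of several chains is printed so that chains which fell and chains which rose in the comparisons can be set side by side. Col3a1, Col5a1 and Col6a3 were lower at day 21 in at least 1 comparison, and Col8a2, Col13a1 and Col17a1 were higher in at least 1. The letters are from RefSeq on GRCm38.p6 and read 5′ to 3′ on the strand of the gene, 120 bases ending at the first base before the transcript start. Capitals mark GGGCGG, the core of the GC box, or its reverse complement.
Col3a1 (chr1:45311418-45311537, plus strand): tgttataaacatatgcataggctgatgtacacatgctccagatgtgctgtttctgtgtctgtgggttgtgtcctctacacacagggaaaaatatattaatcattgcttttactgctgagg
Col5a1 (chr2:27886305-27886424, plus strand): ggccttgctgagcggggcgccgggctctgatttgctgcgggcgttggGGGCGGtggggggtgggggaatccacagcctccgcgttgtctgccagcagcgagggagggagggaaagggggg
Col6a3 (chr1:90843972-90844091, minus strand): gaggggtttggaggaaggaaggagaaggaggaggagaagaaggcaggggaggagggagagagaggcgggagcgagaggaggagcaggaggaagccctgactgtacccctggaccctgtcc
Col8a2 (chr4:126286673-126286792, plus strand): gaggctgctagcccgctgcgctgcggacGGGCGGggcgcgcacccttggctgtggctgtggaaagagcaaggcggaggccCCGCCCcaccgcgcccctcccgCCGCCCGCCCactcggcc
Col13a1 (chr10:61979109-61979228, minus strand): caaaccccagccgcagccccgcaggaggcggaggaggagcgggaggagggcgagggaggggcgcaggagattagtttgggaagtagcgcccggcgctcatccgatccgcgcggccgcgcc
Col17a1 (chr19:47692095-47692214, minus strand): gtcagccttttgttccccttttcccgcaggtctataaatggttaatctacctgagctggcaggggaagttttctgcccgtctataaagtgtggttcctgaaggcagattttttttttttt

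A CCAAT or GGGCGG match was searched for on both strands in 300 bases per start, 250 before and 50 after it. Of the chains, 35 had an entry, with 38 windows because some have more than 1 start. Col1a1, Col2a1, Col4a3, Col5a2, Col9a3, Col12a1, Col14a1, Col22a1 and Col26a1 had none. CCAAT was in 13 of the 38 collagen windows (34.2%) and in 37.4% of all 32851 windows. GGGCGG was in 23 of the 38 (60.5%) and in 35.7% of all windows. In the letters printed, Col8a2 has 4 GGGCGG matches, of which the last pair overlap by some letters, Col5a1 has 1, and Col3a1, Col6a3, Col13a1 and Col17a1 have none. Chains that fell (Col5a1) and rose (Col8a2) both hold the motif, and chains that fell (Col3a1) and rose (Col13a1) both lack it in these letters. Whether the motif goes with direction over all chains was not tested.

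Several chain genes lie next to each other, on the GRCm38 models of GENCODE M21. The type IV chains form head-to-head pairs: Col4a1 and Col4a2 on chromosome 8 overlap by 22 bases at their starts, Col4a4 and Col4a3 on chromosome 1 are 71 bases apart, and Col4a6 and Col4a5 on chromosome X are 1308 bases apart. Col3a1 and Col5a2, both fibrillar, lie tail to tail on chromosome 1 with 24614 bases between them, and Col6a2 and Col6a1 lie on the same strand of chromosome 10 with 85161 bases between them. Col6a6, Col6a5 and Col6a4 follow each other on chromosome 9. The stretch between Col4a4 and Col4a3 is shown whole, on the strand of Col4a4. It was chosen because these 2 chains did not pass the test in any comparison, while Col4a1 and Col4a2 on chromosome 8 fell. Col4a6 and Col4a5 did not pass in any comparison either. The stretch shown has no CCAAT and no GGGCGG.
Col4a4-Col4a3 gap (chr1:82586850-82586920, minus strand): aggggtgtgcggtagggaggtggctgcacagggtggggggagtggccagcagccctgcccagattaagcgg

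Total expected counts, the estimated read counts per gene summed over genes, ran from 24138582 to 42714693 per library, and the labels name a separate mouse for each library, so replicate 3 of a group is its mouse 3. Every pair of replicates differed by more than counting noise (chi-square per degree of freedom 7.95 to 33.1, Spearman correlation across genes 0.988 to 0.996). Levels of different chains are compared in TPM, the deposited transcript abundance scaled by transcript length. The same chain is compared between libraries in CPM, the counts scaled to the size of each library. For sparsely read chains the 2 scales can order libraries differently, because the lengths behind TPM are estimated per library. Markers of alveolar epithelium, airway, endothelium and leukocytes were present in all 12 libraries.

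Before any comparison, the chain levels spanned several orders of magnitude. At day 14 the highest was Col3a1, the single chain of type III collagen, at 701 ± 101 TPM (SD, n = 4). Next came the basement membrane chain Col4a1 at 530 ± 61.4 TPM. Col1a2 (375 ± 39.4 TPM) and Col4a2 (374 ± 40.4 TPM) could not be ordered within their spread. The 4 chains together held 60.5% of all collagen TPM, so a few genes set the total. Col1a1, the partner of Col1a2 in type I collagen, was at 263 ± 38.8 TPM, and Col6a1, Col6a2 and Col6a3 of the type VI trimer were at 191, 163 and 112 TPM. In the NP group the order at the top had become even: Col4a1 was at 377 ± 39.0 TPM and Col3a1 at 374 ± 77.1 TPM.

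The number of chains with a mean over 100 TPM was 8 at day 14 and 7 in both day 21 groups, the difference being Col6a3. Between 14 and 15 chains were at 1 TPM or less in each group. The highest in the FACIT class at day 14 were Col16a1 and Col12a1, at 30.5 and 27.6 TPM, followed by Col14a1 at 25.9 TPM, and the highest in the mixed class were Col18a1 and Col13a1, at 37.1 and 27.6 TPM. Col2a1 (1 to 15 counts per library), Col9a1 (0 to 2), Col9a2 (0 to 4) and Col19a1 (0 to 4) had too few counts to test. Types II and IX are the collagens of cartilage, and 8 cartilage markers were also examined. Their summed TPM was 9.75 to 17.2 across the 12 libraries, and 1 of them, Cytl1, made up nearly all of it (9.77 TPM at day 14, 12.4 with vehicle and 12.4 with NP). Each of the other 7 had a mean of at most 0.54 TPM in every group, and Snorc was listed at 0 in all day 14 and vehicle libraries.

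**Figure D1:**
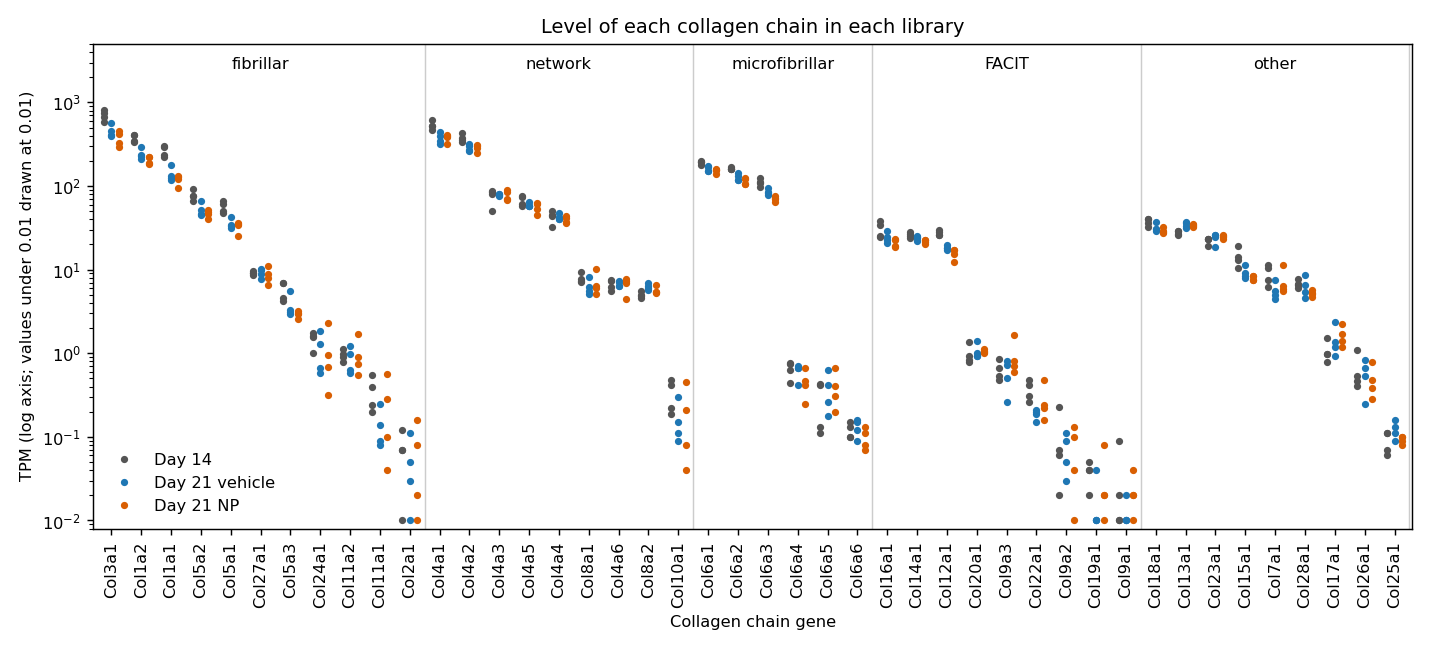
TPM of each of the 44 collagen chains on a log axis, 1 point per library (grey day 14, blue day 21 vehicle, orange day 21 NP), grouped by class and ordered by mean level. Col3a1 and Col4a1 are at the top at 701 and 530 TPM at day 14, and Col9a1, Col9a2, Col19a1 and Col2a1 lie at the bottom.

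Summed over all 44 chains, collagen TPM was 2932, 3384, 3596 and 3170 in the day 14 libraries. The vehicle libraries were at 2116, 2729, 2203 and 2387. The NP libraries were at 2296, 2329, 2096 and 1908. Each of the 8 libraries of day 21 was below the lowest of day 14, and the 2 groups of day 21 overlapped. The mean share of all TPM was 0.327% at day 14, 0.236% with vehicle and 0.216% with NP. Fibrillar chains made up 45.4% of the collagen TPM at day 14, 39.6% with vehicle and 36.6% with NP, while network chains made up 34.0%, 36.7% and 39.7%. Microfibrillar chains were at 14.3%, 15.9% and 15.7%, and FACIT chains at 2.63%, 2.91% and 2.82%. These sums are descriptions and have no test.

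**Figure D2:**
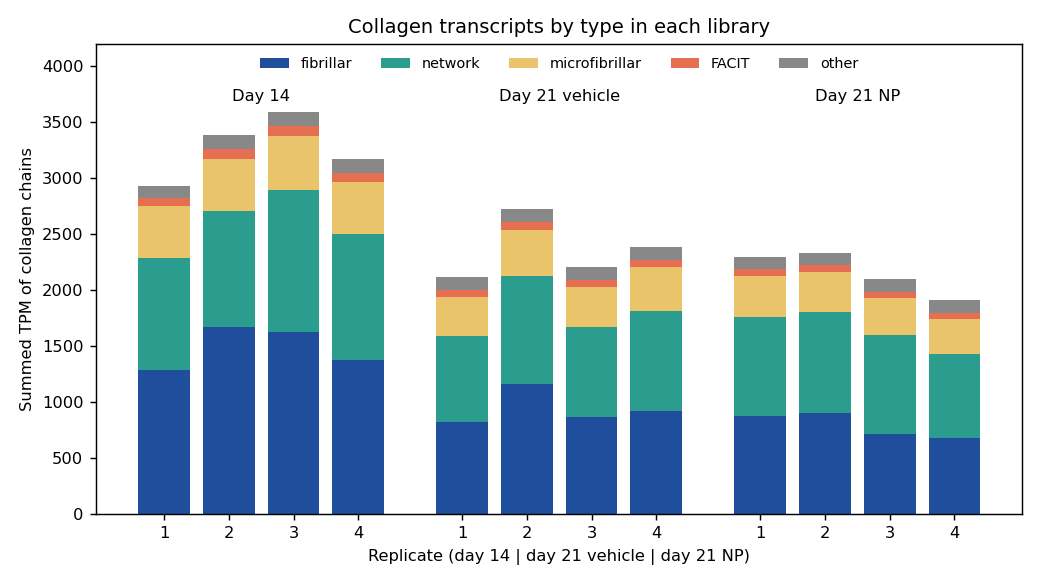
Summed TPM of the 44 collagen chains in each of the 12 libraries, stacked by class. Day 14 libraries reach 2932 to 3596, vehicle libraries 2116 to 2729 and NP libraries 1908 to 2329, and the fibrillar part of the bar is the one that shrinks most.

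From day 14 to day 21 under vehicle, the chains of scar fibrils and several of their companions were lower and a few minor chains were higher. Of 40 chains, 15 passed an adjusted p of 0.05 (37.5%), against 10.3% of all 17909 genes tested. Of these, 12 were lower, where 6.51% of all genes were lower, and 3 were higher, where 3.79% of all genes were. The median log2 fold change of the 40 was −0.28, beside 0.0031 over all genes. The chains that fell were Col1a1, Col1a2, Col3a1, Col5a1, Col5a2, Col4a1, Col4a2, Col6a1, Col6a2, Col12a1, Col15a1 and Col18a1, and those that rose were Col8a2, Col13a1 and Col17a1. The 2 groups did not overlap in CPM for 14 chains that were lower (10.7% of all genes) and 4 that were higher (7.20% of all genes). Tests were edgeR quasi-likelihood tests with Benjamini-Hochberg adjustment over all genes.

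The count depended on single libraries. It was 5 without Day 14 replicate 3, 5 without vehicle replicate 1 and 6 without vehicle replicate 3, and rose to 18 without vehicle replicate 2. Calls over all genes fell as well, from 1845 to 719, 744 and 866 in the first 3 of these. Col1a1, Col1a2, Col5a2 and Col13a1 passed with any of the 12 libraries left out, and the other 11 chains missed the threshold in at least 1 of those fits. With limma on unfiltered log2(TPM + 1) values the count was 5.

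Type I collagen is a trimer of Col1a1 and Col1a2 chains and is the main protein of scar. Col1a1 (chromosome 11, 94936224 to 94953042) was at 920, 1173, 1111 and 844 CPM at day 14 and at 444, 676, 474 and 520 CPM with vehicle. Its groups did not overlap, with the highest vehicle library, replicate 2, well below the lowest of day 14. The difference was −0.94 on the log2 scale (SE 0.15, adjusted p = 0.00313), or 1.92-fold lower. Col1a2 (chromosome 6, 4504814 to 4541544) was at 1180, 1386, 1384 and 1110 CPM at day 14 and at 674, 940, 734 and 794 CPM with vehicle. It also showed no overlap and fell by 0.69 (SE 0.11, adjusted p = 0.00315).

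Col3a1 (chromosome 1, 45311538 to 45349706), whose homotrimer mixes into type I fibrils, was at 1607, 2028, 2110 and 1810 CPM at day 14 and at 1057, 1583, 1159 and 1359 CPM with vehicle. The groups did not overlap, although vehicle replicate 2 came close to the lowest day 14 library. The difference was −0.55 (SE 0.15, adjusted p = 0.0366). Removing any one of Day 14 mice 2, 3 and 4 and vehicle mice 1, 3 and 4 ended the call, at adjusted p between 0.0564 and 0.118, and so did dropping the low-count filter (adjusted p = 0.0992). Type V collagen regulates the width of fibrils. Its chains Col5a1 and Col5a2 fell by 0.57 (adjusted p = 0.0136) and 0.60 (adjusted p = 0.00970), with Col5a1 reaching an adjusted p of 0.0517 without vehicle replicate 1. The third type V chain, Col5a3, was at −0.62 (SE 0.22) but did not pass (adjusted p = 0.0858). In all, 5 of 10 fibrillar chains fell (6.51% of all genes did) and none rose, with a class median of −0.61. Col24a1 (−0.69), Col11a1 (−0.81), Col11a2 (−0.06) and Col27a1 (0.03) did not pass.

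In basement membrane collagen, the broadly used pair fell while the chains of the alveolar and kidney type network did not pass. Col4a1 was at 2039, 2258, 2633 and 2209 CPM at day 14 and at 1335, 1861, 1481 and 1794 CPM with vehicle, with no overlap. It fell by 0.50 (SE 0.12, adjusted p = 0.0183) and its head-to-head neighbour Col4a2 by 0.38 (SE 0.10, adjusted p = 0.0275). Removing Day 14 mouse 3, vehicle mouse 1 or vehicle mouse 3 ended both calls, at adjusted p between 0.0624 and 0.0677 for Col4a1 and between 0.0880 and 0.0963 for Col4a2. Col4a3, a chain of the network characteristic of glomerulus and alveolus, was at 457, 282, 486 and 466 CPM at day 14 and at 409, 441, 444 and 455 CPM with vehicle. Apart from Day 14 replicate 2, the vehicle libraries lay below those of day 14. The change of Col4a3 was 0.05 (95% interval −0.26 to 0.36, adjusted p = 0.860). Col4a4, Col4a5 and Col4a6 were at −0.01, −0.14 and 0.03 and did not pass. Leaving out single libraries gave −0.09 to 0.12 for Col4a3, −0.11 to 0.06 for Col4a4 and −0.23 to −0.07 for Col4a5. None of these passed, which does not show that the chains stayed level.

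Markers of the epithelium that lies on this basement membrane are given beside it. The summed TPM of 6 alveolar type 1 markers was 4150 to 4453 at day 14, 4018 to 4208 with vehicle and 3706 to 4203 with NP, with Pdpn and Aqp5 lower in both comparisons and the other 4 not past the threshold. Day 14 replicate 2, the library with low Col4a3, had a sum of 4252. The 6 capillary endothelial markers summed to 1126 to 1311 TPM at day 14, 1181 to 1528 with vehicle and 1259 to 1545 with NP, and none passed in either comparison at the adjusted threshold. Over all genes 6.51% were lower with vehicle and 8.56% with NP. The part of these markers in the type IV results was not tested.

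The short-chain network collagens did not move together. Col8a2, a chain of type VIII collagen of vessel walls, was at 13.6, 13.5, 13.8 and 12.3 CPM at day 14 and at 16.4, 15.4, 17.3 and 18.4 CPM with vehicle. Every vehicle library was above every day 14 library, and the rise was 0.35 (SE 0.09, adjusted p = 0.0250). That call ended when Day 14 mouse 1 or 3, or vehicle mouse 1, 3 or 4, was removed (adjusted p between 0.0518 and 0.0713), and with limma on TPM (adjusted p between 0.0998 and 0.167). Its partner chain Col8a1 was at −0.34 and Col10a1, the hypertrophic cartilage chain, at −0.99 with 2 to 25 counts per library, and neither passed.

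In type VI, Col6a1 was at 526, 475, 509 and 489 CPM at day 14 and at 384, 441, 390 and 455 CPM with vehicle, and Col6a2 was at 420, 419, 429 and 405 CPM at day 14 and at 298, 361, 302 and 354 CPM with vehicle. Neither gene's groups overlapped. They fell by 0.26 (SE 0.07, adjusted p = 0.0321) and 0.35 (SE 0.08, adjusted p = 0.0147). For Col6a1, removing Day 14 mouse 1 or 3, or vehicle mouse 1 or 3, ended the call (adjusted p between 0.0898 and 0.116), as did fitting only the 8 libraries compared (adjusted p = 0.0515). For Col6a2, removing Day 14 mouse 3, or vehicle mouse 1 or 3, did so (adjusted p between 0.0514 and 0.0628). Col6a3, the chain that completes the trimer, was at −0.29 with no overlap but did not pass (adjusted p = 0.0844). Col6a4, Col6a5 and Col6a6, chains that can take the place of Col6a3, were at −0.20, 0.49 and 0.15 and did not pass.

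Among fibril-associated chains Col12a1, which bridges fibrils in tissues under tension, fell. It was at 142, 112, 169 and 160 CPM at day 14 and at 92.9, 89.8, 101 and 110 CPM with vehicle. The highest vehicle library was just below Day 14 replicate 2, and the change was −0.57 (SE 0.13, adjusted p = 0.0180). Removing Day 14 mouse 3 or vehicle mouse 1 ended it (adjusted p between 0.0614 and 0.0632). The other 5 tested chains of this class did not pass, at −0.09 for Col14a1, −0.27 for Col16a1, −0.69 for Col22a1, −0.08 for Col9a3 and 0.38 for Col20a1.

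Both multiplexins fell. Col15a1, of the zone between basement membrane and matrix, was at 34.9, 48.6, 46.2 and 38.1 CPM at day 14 and at 21.3, 34.5, 29.3 and 28.6 CPM with vehicle, a change of −0.56 (SE 0.13, adjusted p = 0.0207). Vehicle replicate 2 was only just below the lowest day 14 library. Col18a1, the parent chain of endostatin, changed by −0.31 (SE 0.08, adjusted p = 0.0258). The Col15a1 call ended when Day 14 mouse 2 or 3, or vehicle mouse 3, was removed (adjusted p between 0.0512 and 0.0689). The Col18a1 call ended when Day 14 mouse 3, or vehicle mouse 1 or 3, was removed (adjusted p between 0.0757 and 0.0948). With limma on TPM neither passed, at adjusted p between 0.0508 and 0.1098 for Col15a1 and between 0.195 and 0.333 for Col18a1.

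Of the 4 transmembrane collagens, 2 rose, where 3.79% of all genes did. Col13a1 (chromosome 10, 61838236 to 61979108), a cell surface collagen at adhesion sites, was at 48.3, 47.4, 51.6 and 49.97 CPM at day 14 and at 63.4, 59.0, 57.2 and 68.7 CPM with vehicle. All vehicle libraries were higher, and the rise was 0.33 (SE 0.06, adjusted p = 0.00629). Col17a1 (chromosome 19, 47646344 to 47692094), a hemidesmosome component of basal epithelium, was at 2.18, 2.53, 2.83 and 3.19 CPM at day 14 and at 6.59, 3.28, 4.23 and 5.17 CPM with vehicle. Vehicle replicate 2 lay just above the highest day 14 library. The rise was 0.85 (SE 0.22, adjusted p = 0.0301), and it did not pass once Day 14 mouse 1, 2 or 3, or vehicle mouse 1, 3 or 4, was removed (adjusted p between 0.0523 and 0.0967). With limma on TPM the Col17a1 estimate was 0.23 on the log2(TPM + 1) scale and 0.38 on the log2(TPM + 0.1) scale. Col17a1 did not pass with limma (adjusted p between 0.481 and 0.605). Both scales shrink changes of low genes, but the TPM ranges without a pseudocount also overlapped. They were 0.78 to 1.54 (mean 1.07) at day 14 and 0.93 to 2.37 (mean 1.47) with vehicle.

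The 4 basal epithelial markers Krt5, Trp63, Krt14 and Ngfr summed to 2.01 to 3.51 TPM at day 14, 1.80 to 4.28 with vehicle and 1.34 to 4.60 with NP, and none passed in either comparison. The part of basal cells in the Col17a1 result was not tested. The 6 alveolar fibroblast markers summed to 1965 to 2418 TPM at day 14 and to 2415 to 3503 with vehicle, with Itga8, Inmt and Limch1 higher. The 6 scar fibroblast and myofibroblast markers summed to 629 to 792 TPM at day 14 and 599 to 670 with vehicle, and none of the 6 passed. Over all genes 3.79% were higher and 6.51% lower with vehicle. The part of these fibroblast markers in the Col13a1 and fibrillar results was not tested.

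Between day 14 and day 21 in the mice given nanoparticles, most of the chains that passed were again lower. Of 40 chains, 21 passed (52.5%), against 14.7% of all genes. Of these, 18 were lower, with 8.56% of all genes lower, and 3 were higher, with 6.16% of all genes higher. The median over the 40 was −0.43, beside 0.00622 over all genes. The chains that fell were Col1a1, Col1a2, Col3a1, Col5a1, Col5a2, Col5a3, Col24a1, Col4a1, Col4a2, Col6a1, Col6a2, Col6a3, Col12a1, Col14a1, Col16a1, Col15a1, Col18a1 and Col28a1, and those that rose were Col6a5, Col13a1 and Col17a1. The groups did not overlap for 21 chains that were lower (10.6% of all genes) and 5 that were higher (8.47% of all genes). Both comparisons share the 4 day 14 libraries, and a chain past the threshold in 1 comparison only is not shown to differ between vehicle and NP. Leaving out single libraries gave 15 to 21 chains, and 15 of the 21 passed in every such fit. With limma on unfiltered log2(TPM + 1) values the count was 11.

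**Figure D3:**
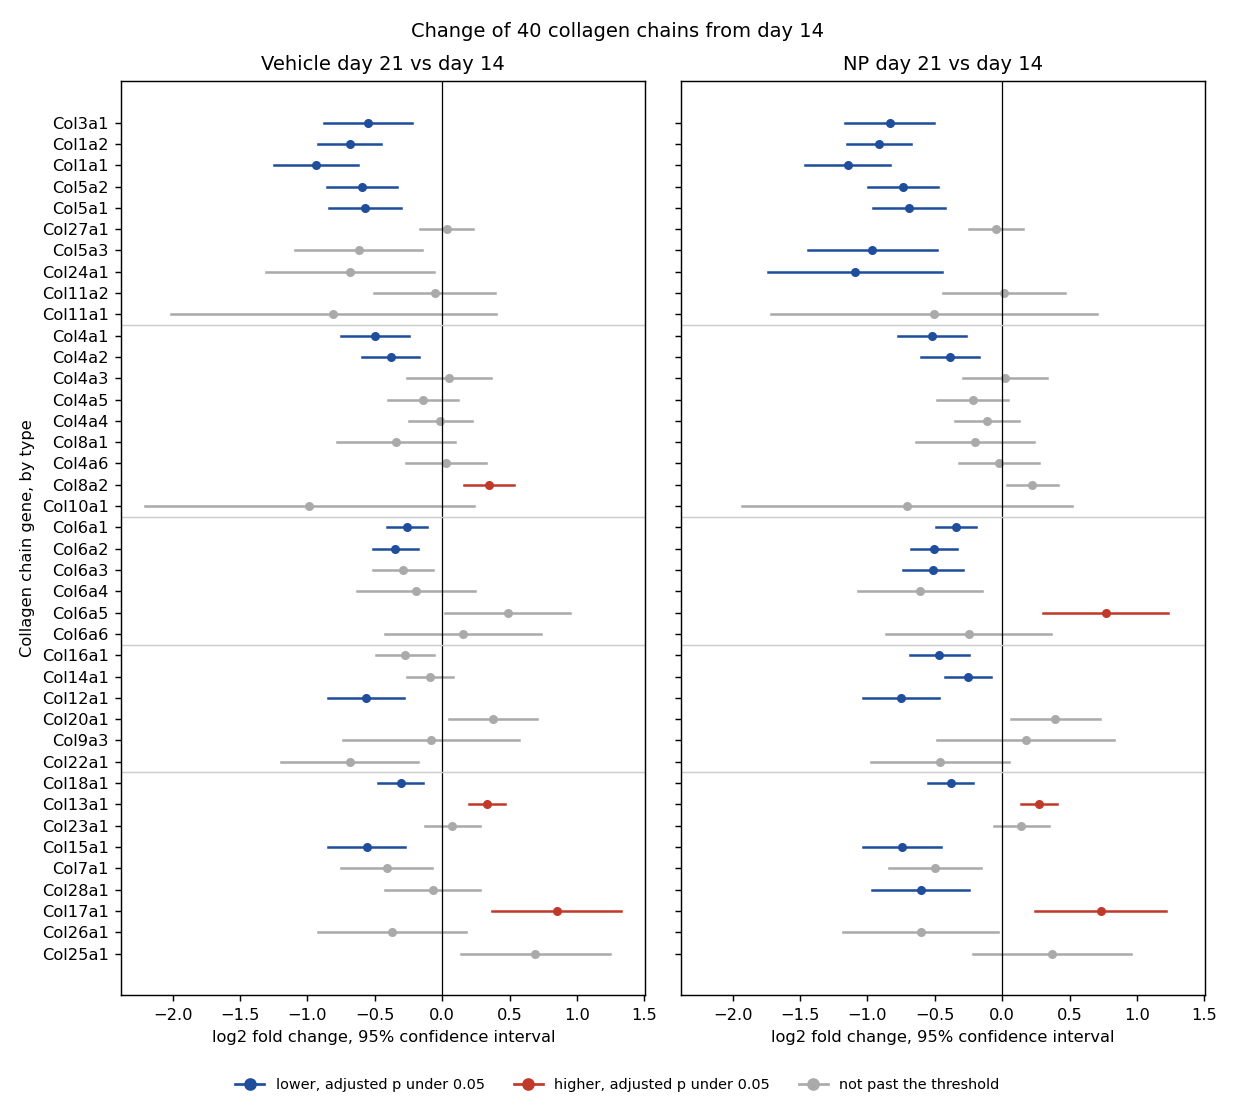
Log2 fold change of 40 collagen chains with 95% confidence intervals, vehicle (left) and NP (right) against the same day 14 libraries, ordered by class. Blue marks chains past the threshold and lower (12 and 18), red marks those higher (3 and 3), and grey those not past it.

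Col1a1 was at 500, 499, 466 and 367 CPM with NP, all below the 844 CPM of the lowest day 14 library. It fell by 1.14 (SE 0.15, adjusted p = 0.000758), or 2.21-fold. Col1a2 was at 724, 730, 629 and 603 CPM with NP, again without overlap, and fell by 0.91 (SE 0.11, adjusted p = 0.000503). Col3a1 was at 1200, 1262, 816 and 955 CPM with NP and fell by 0.84 (SE 0.15, adjusted p = 0.00406). The 3 chains of the major fibrils thus each kept all 4 NP libraries under the day 14 range. Of the fibrillar class 7 of 10 fell (8.56% of all genes did) and none rose, with a median of −0.78.

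Col5a1 fell by 0.69 (adjusted p = 0.00384) and Col5a2 by 0.73 (adjusted p = 0.00237). Col5a3 was at 18.3, 27.9, 27.4 and 16.5 CPM at day 14 and at 11.5, 12.7, 11.8 and 10.1 CPM with NP, and fell by 0.96 (SE 0.22, adjusted p = 0.0144), a call that ended without the low-count filter (adjusted p = 0.0502). Col24a1, a minor fibrillar chain, was at 3.88, 5.69, 6.11 and 4.96 CPM at day 14 and at 2.65, 2.49, 3.05 and 1.45 CPM with NP. In CPM the NP libraries of both chains lay below all of day 14. In TPM those of Col24a1 did not, at 1.01 to 1.75 at day 14 and 0.32 to 2.30 with NP. Col24a1 fell by 1.09 (SE 0.30, adjusted p = 0.0290), and the call ended when Day 14 mouse 2 or 3, or NP mouse 1, 2 or 4, was removed (adjusted p between 0.0545 and 0.0813). Col24a1 did not pass without the low-count filter (adjusted p = 0.0698) or with limma, where it was at −0.34 on the log2(TPM + 1) scale and −0.69 on the log2(TPM + 0.1) scale (adjusted p between 0.399 and 0.590).

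Col4a1 was at 1617, 1698, 1715 and 1342 CPM with NP and fell by 0.52 (SE 0.12, adjusted p = 0.0110), and Col4a2 fell by 0.39 (SE 0.10, adjusted p = 0.0199). Col4a2 missed the threshold when Day 14 mouse 3, or NP mouse 1 or 4, was removed (adjusted p between 0.0512 and 0.0702). Col4a3 was at 465, 490, 373 and 391 CPM with NP. At day 14 it was at 457 to 486 CPM apart from replicate 2 at 282. The change of Col4a3 was 0.02 (95% interval −0.29 to 0.34, adjusted p = 0.931), and Col4a4, Col4a5 and Col4a6 were at −0.11, −0.22 and −0.02 and did not pass. Leaving out single libraries gave −0.12 to 0.10 for Col4a3, −0.21 to −0.04 for Col4a4 and −0.30 to −0.11 for Col4a5. The smallest adjusted p in these edgeR fits were 0.382, 0.0759 and 0.0824. Col8a2 was at 14.2, 14.8, 14.8 and 18.2 CPM, above all day 14 libraries, but its change of 0.22 did not pass (adjusted p = 0.1003).

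All 3 chains of the common type VI trimer fell with NP. Col6a1 changed by −0.34 (adjusted p = 0.00651), Col6a2 by −0.51 (adjusted p = 0.00165) and Col6a3 by −0.51 (adjusted p = 0.00609). Col6a3 was at 400, 398, 472 and 431 CPM at day 14 and at 329, 329, 256 and 276 CPM with NP, with no overlap. Col6a5, a rarely read alternative chain, went the other way, from 0.790, 0.679, 1.04 and 0.905 CPM to 1.17, 1.62, 1.48 and 1.56 CPM. In TPM the groups overlapped, at 0.11 to 0.43 at day 14 and 0.20 to 0.66 with NP. In CPM no NP library was as low as any of day 14, and the rise was 0.77 (SE 0.22, adjusted p = 0.0309). It did not pass once Day 14 mouse 1 or 2, or NP mouse 2 or 4, was removed (adjusted p between 0.0578 and 0.0831), without the low-count filter (adjusted p = 0.0575), or with limma on unfiltered log2(TPM + 1), where the estimate was 0.13 (adjusted p = 0.681). Col6a4 was at −0.61 (adjusted p = 0.0689).

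In the FACIT class 3 of 6 tested chains fell, where 8.56% of all genes did. Col12a1 was at 87.6, 96.9, 67.9 and 94.1 CPM with NP and fell by 0.75 (SE 0.13, adjusted p = 0.00355). Col16a1 was at 65.7, 84.9, 81.5 and 68.2 CPM at day 14 and at 55.6, 51.9, 59.9 and 49.9 CPM with NP and fell by 0.47 (SE 0.10, adjusted p = 0.00911). Col14a1, a fibril surface chain of adventitial fibroblasts, fell by 0.26 (SE 0.08, adjusted p = 0.0450). The Col14a1 call was lost in 9 of the 12 fits that left out a library (adjusted p 0.0578 to 0.133): those without NP mouse 1, 2, 3 or 4, without Day 14 mouse 1, 3 or 4, and without vehicle mouse 2 or 3. It was also lost with RLE scaling (adjusted p = 0.0562), with only the 8 libraries compared (adjusted p = 0.0580) and with limma on unfiltered values (adjusted p = 0.0610).

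Col15a1 was at 25.3, 27.0, 24.6 and 23.3 CPM with NP and fell by 0.74 (SE 0.13, adjusted p = 0.00406), and Col18a1 fell by 0.38 (SE 0.08, adjusted p = 0.00690). Col28a1, a von Willebrand factor domain collagen known from Schwann cell basement membranes, was at 15.1, 17.9, 18.8 and 15.8 CPM at day 14 and at 12.4, 11.7, 10.1 and 10.1 CPM with NP. Those groups did not overlap, and it fell by 0.60 (SE 0.17, adjusted p = 0.0295). That call ended when Day 14 mouse 2 or 3, or NP mouse 2, 3 or 4, was removed (adjusted p between 0.0571 and 0.0848). Col28a1 did not pass without the low-count filter (adjusted p = 0.0676) or with limma, at −0.33 on the log2(TPM + 1) scale and −0.38 on the log2(TPM + 0.1) scale (adjusted p between 0.170 and 0.300). The 4 Schwann markers summed to 114 to 151 TPM at day 14 and 123 to 163 with NP, and none of the 3 tested passed. Col13a1 rose to 61.1, 58.9, 56.2 and 61.9 CPM, by 0.27 (SE 0.06, adjusted p = 0.0118). Col17a1, at 4.17, 4.69, 3.09 and 5.76 CPM, rose by 0.73 (SE 0.23, adjusted p = 0.0451), although NP replicate 3 lay inside the day 14 range. It did not pass in 8 of the 12 fits without a library (adjusted p 0.0572 to 0.140), those lacking Day 14 mouse 1, 2 or 3, NP mouse 1, 2 or 4, or vehicle mouse 3 or 4. With limma the Col17a1 estimate was 0.34 on the log2(TPM + 1) scale and 0.57 on the log2(TPM + 0.1) scale and did not pass (adjusted p between 0.253 and 0.421). Col7a1, which anchors basement membranes, was at −0.50 and just missed the threshold (adjusted p = 0.0511).

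Beside these changes, 3 of 6 scar fibroblast markers fell with NP (Cthrc1, Tagln and Ltbp2), with a summed level of 552 to 614 TPM against 629 to 792 at day 14. Itga8, Inmt and Limch1 of the alveolar fibroblast list were higher, with a summed level of 2925 to 3458 TPM against 1965 to 2418. The leukocyte marker Ptprc was higher by 0.54 (adjusted p = 0.00112) in the NP libraries than at day 14. It was 1 of 7 general lung markers, and the other 6 did not pass. None of the 7 passed with vehicle or between NP and vehicle. Of 6 adventitial fibroblast markers 2 were lower, with sums of 1568 to 1777 TPM at day 14 and 1410 to 1809 with NP. Of 5 smooth muscle markers 1 was lower (121 to 201 TPM at day 14, 137 to 145 with NP). Of 5 pericyte markers 1 was lower in both comparisons (259 to 318 TPM at day 14, 264 to 289 with vehicle, 256 to 265 with NP), and so was 1 of 5 mesothelial markers (327 to 372, 259.95 to 305 and 253 to 349 TPM). Over all genes 8.56% were lower and 6.16% higher with NP, and 6.51% were lower with vehicle. A single called marker in a list of 5 is therefore not read as a change of that cell type. The part of these markers in the collagen results was not tested.

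**Figure D4:**
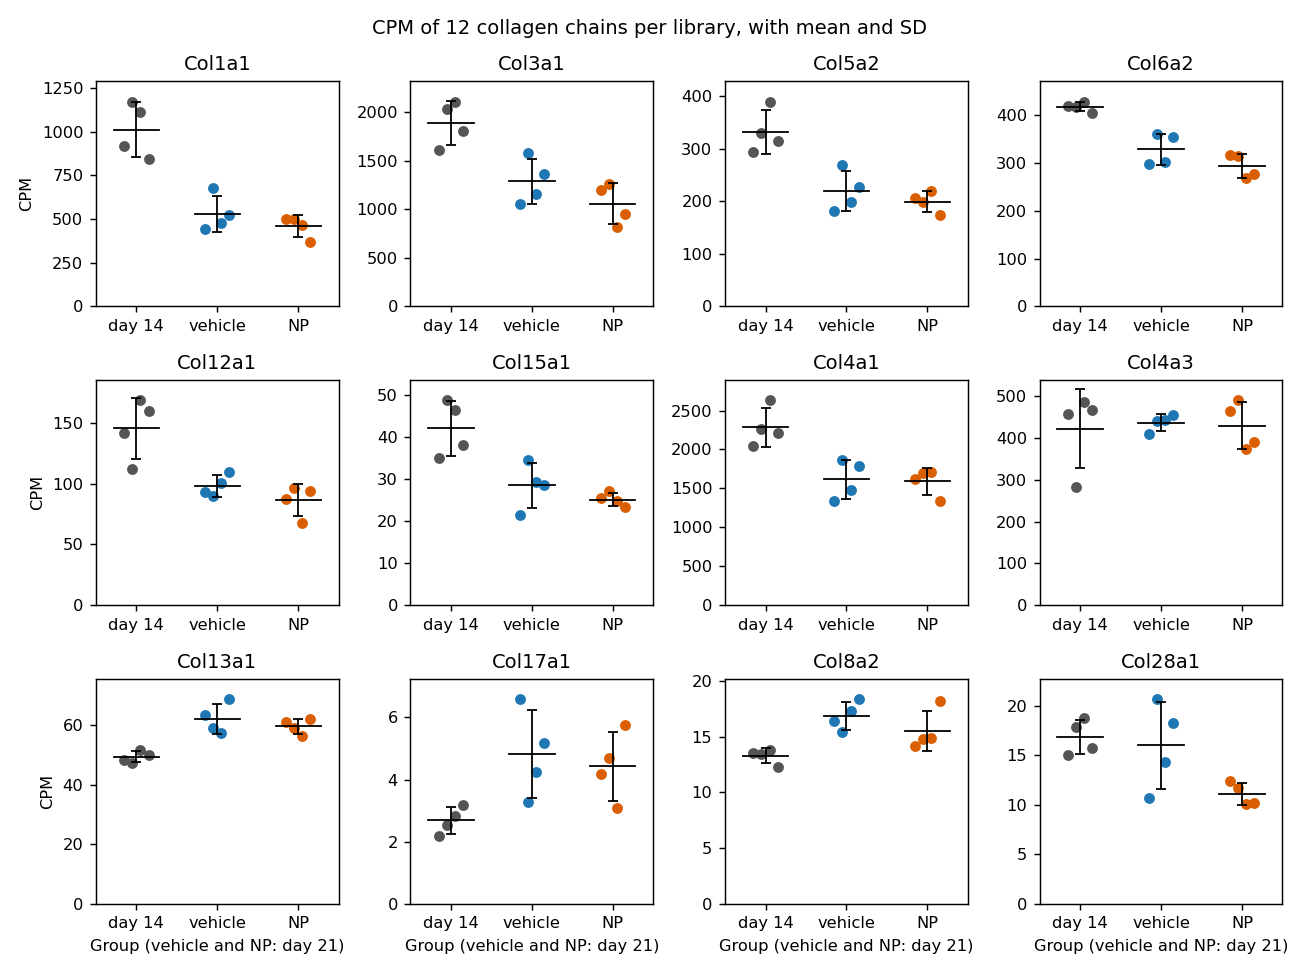
CPM of 12 collagen chains in each library, points by group with the mean (line) and SD (bars), each axis starting at 0. Col1a1 falls from 844 to 1173 CPM at day 14 to 367 to 500 with NP, and Col13a1 is higher in all 8 libraries of day 21. Col4a3 is at 457 to 486 CPM at day 14 apart from 1 low library at 282, at 409 to 455 with vehicle and at 373 to 490 with NP.

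The direct comparison of NP with vehicle at day 21 asks whether the particles themselves altered collagen transcripts. No chain passed edgeR's test (0 of 40), and neither did any gene (0% of 17909), with 762 genes at an unadjusted p under 0.05. Among the chains 1 had such an unadjusted p. DESeq2 called 19 genes and limma on log2(TPM + 0.1) called 1, none of them a collagen. Estimates for the 40 chains ran from −0.53 to 0.30, 31 were negative and 9 positive, and the median was −0.11 beside 0.00202 over all genes. The groups overlapped for every chain tested, where 3.55% of all genes did not overlap (1.75% lower and 1.80% higher).

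For the chains of scar fibrils the estimates were −0.21 for Col1a1 (95% interval −0.52 to 0.10), −0.23 for Col1a2 (−0.46 to 0.01) and −0.29 for Col3a1 (−0.61 to 0.04). The intervals include no change, and they reach down to −0.61 on the log2 scale. Those for Col4a1 (−0.27 to 0.23) and Col4a2 (−0.22 to 0.21) were centred near 0, and Col13a1 had one of the narrowest, at −0.19 to 0.07. The widest belonged to the rarely read Col10a1 (−1.04 to 1.59) and Col11a1 (−0.96 to 1.56).

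Col28a1 was the chain with the unadjusted p under 0.05. It was at 10.7, 20.7, 14.4 and 18.3 CPM with vehicle and at 12.4, 11.7, 10.1 and 10.1 CPM with NP. Vehicle replicate 1 lay among the NP libraries, and the other 3 were above them. The estimate was −0.53 (SE 0.17, 95% interval −0.89 to −0.17) and the adjusted p 0.925.

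**Figure D5:**
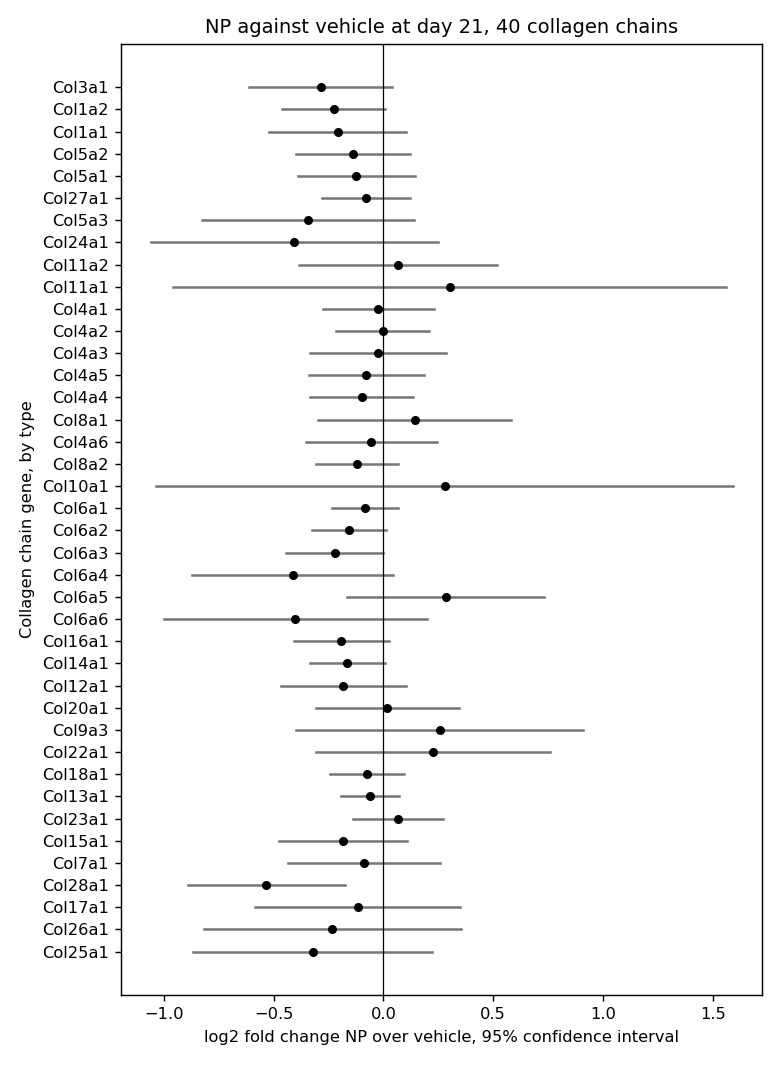
Log2 fold change of 40 collagen chains, NP over vehicle at day 21, with 95% confidence intervals. All intervals but that of Col28a1 (−0.89 to −0.17) reach or cross 0.

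Chains that assemble into 1 trimer or fibril were also compared as a ratio within each library, which does not depend on how libraries are scaled. The TPM ratio of Col1a1 to Col1a2 was 0.683, 0.749, 0.702 and 0.666 at day 14 and 0.566, 0.613, 0.530 and 0.564 with vehicle. With NP it was 0.593, 0.584, 0.637 and 0.525. Both groups of day 21 lay wholly below day 14 (exact two-sided permutation p = 0.0286 for each, the smallest that 4 against 4 allows). After adjustment over the 18 ratio tests the p was 0.0857, so the ratio did not pass. A separated ratio can pass this adjustment only if many of the 18 tests also reach the smallest p. The adjusted result therefore cannot decide whether the ratio changed.

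The ratio of Col4a1 to Col4a2 was 1.42 at day 14, 1.31 with vehicle and 1.32 with NP, again with no overlap and the same p values in the exact permutation test. Col3a1 to Col1a1 was 2.67 at day 14 and 3.31 with vehicle without overlap (exact permutation p = 0.0286, adjusted 0.0857), and 3.13 with NP with overlap (exact permutation p = 0.171). Col6a1 to Col6a2 was 1.18 at day 14, 1.26 with vehicle with overlap (exact permutation p = 0.0571, adjusted 0.147), and 1.33 with NP without overlap (exact permutation p = 0.0286, adjusted 0.0857). Col5a1 to Col5a2 (0.726, 0.690 and 0.697) and Col4a3 to Col4a4 (1.76, 1.86 and 1.95) overlapped between groups. None of the 18 tests passed after adjustment, which with 4 libraries per group says little about the ratios. All 6 ratios overlapped between NP and vehicle. A further pair chosen after its values were seen, Col4a1 to Col4a3, was 7.29 ± 2.09 at day 14, 4.77 ± 0.609 with vehicle and 4.91 ± 0.751 with NP (SD, n = 4), and is given without a test. Its day 14 range of 5.76 to 10.3 includes replicate 2, the library with low Col4a3. That range overlapped NP (4.44 to 6.03) but not vehicle (4.23 to 5.46).

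Genes that make, bind or break down collagen were counted from the same fits. Of 57 listed genes 56 could be tested, 16 fell and 2 rose from day 14 to vehicle, and 27 fell and 3 rose from day 14 to NP, while none passed between NP and vehicle. Over all genes 6.51% were lower and 3.79% higher with vehicle, and 8.56% lower and 6.16% higher with NP. Among folding and modification genes, 10 of 20 fell with vehicle and 13 of 20 with NP. Serpinh1, the collagen chaperone, was at −0.36 (adjusted p = 0.0163) and −0.47 (adjusted p = 0.00298). Fkbp10, a prolyl isomerase, was at −0.49 (adjusted p = 0.00933) and −0.61 (adjusted p = 0.00217). Colgalt2, a galactosyltransferase for hydroxylysine, rose in both, by 0.59 (adjusted p = 0.00912) and 0.59 (adjusted p = 0.00584).

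Among propeptide-removing genes 2 of 7 fell and 1 rose with vehicle, and 3 of 7 fell with NP. For this and the following lists, the shares over all genes were 6.51% lower and 3.79% higher with vehicle. With NP they were 8.56% lower and 6.16% higher. Adamts2, the procollagen N-proteinase, was at −0.49 (adjusted p = 0.0265) and −0.75 (adjusted p = 0.00256), and Bmp1, the C-proteinase, at −0.33 and −0.50. Of the 5 cross-linking oxidases 2 fell with vehicle and 3 with NP, with Loxl2 at −0.49 (adjusted p = 0.0135) and −0.72 (adjusted p = 0.00145). Of 4 fibril-binding proteoglycans 2 and 3 fell, with Lum at −0.42 (adjusted p = 0.0432) and −0.76 (adjusted p = 0.00217). No collagen receptor passed with vehicle. With NP, Ddr1 and Mrc2 fell, and Itga1 and the platelet collagen receptor Gp6 rose, Gp6 by 1.29 (adjusted p = 0.00692). No collagen-degrading enzyme passed with vehicle, and with NP Mmp2 (−0.53) and Mmp14 (−0.59) fell. Of the basement membrane partners Hspg2 fell with NP (−0.43), and no other passed in either comparison.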

How the data were processed

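Whole-lung polyadenylated RNA from 12 mice, 4 per group, was sequenced as 151 bp read pairs. Per the submitters' processing notes the authors used RSEM 1.3.3, MultiQC 1.20, STAR 2.7.8a, cutadapt 4.8 and FastQC 0.11.8 with GRCm38. The annotation release and strand setting are not given in the sources used here, so reads of overlapping or antisense genes may be shared. The authors deposited RSEM expected counts and TPM per gene, and the FPKM table was not used here.

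Expected counts were rounded. Genes were kept by filterByExpr (minimum count 10, minimum total 15; 17909 kept) and scaled by TMM, and 3 contrasts were tested in 1 edgeR 4.0.16 quasi-likelihood fit over all 12 libraries in R 4.3.3 (adjusted p threshold 0.05, Benjamini-Hochberg over all genes). CPM are TMM-scaled. The step was also run on simulated counts with changes placed only in well-read genes, which says nothing about rarely read chains. Depth, 24138582 to 42714693 counts per library, limits the precision of rarely read chains. Chain ratios used exact permutation tests. Alternatives were DESeq2 1.42.0, limma 3.58.1 on log2(TPM + 1) or log2(TPM + 0.1), other scaling and filters, a replicate block and leaving out libraries. Named were every chain past the threshold, the 2 highest of each class, and the rest by value. Members, lists and tests were chosen with earlier results of these data known. Coordinates are from GENCODE M21, in which all 44 chains were found by identifier. Protein sequences were not analysed here.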

Additional observations from a re-analysis of the deposited data

Results flagged for a closer look

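In 9 of 120 sets of 4 libraries (40 chains in 3 groups) 1 library's gap to the nearest other exceeded the 95% limit of Dixon's test relative to the whole range, where chance alone gives about 1 in 20. Values are CPM, and no cause was tested. NP replicate 4 stood apart in 3 chains: Col6a1 was at 363 (the other NP libraries 401 to 409), Col5a1 at 90.3 (120 to 124) and Col8a2 at 18.2 (14.2 to 14.8). Vehicle replicate 1 stood apart in 2, with Col20a1 at 3.98 (2.68 to 2.89) and Col6a4 at 1.41 (2.20 to 2.28). Col6a4 was also low in NP replicate 3, at 0.977 (1.66 to 1.78). Col23a1 was low in vehicle replicate 2, at 67.5 (90.3 to 92.4). Col8a1 was high in Day 14 replicate 3, at 31.1 (23.98 to 25.02), and Col4a3 was low in Day 14 replicate 2, at 282 (457 to 486).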

How the results depend on the processing

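No estimate changed from a called direction to the opposite one in any of 22 alternatives, 12 of which left out 1 library. The vehicle count of 15 chains ran from 5 to 18 with libraries left out, and the NP count of 21 from 15 to 21. With limma on log2(TPM + 1) and no filter they were 5 and 11, with 381 and 824 genes called in all against 1845 and 2636. Calls over all genes also fell with limma on filtered genes, to 945 and 912 for vehicle and 1452 and 1460 for NP at the 2 pseudocounts, and to 1672 for NP with only the 8 libraries compared. The NP against vehicle count was 0 throughout. The cause of these shifts was not tested. Of single-chain results 2449 kept their side of the threshold, 118 lost a call and 17 gained one. The 2449 include chains that were not called to begin with and so had no call to lose. Over all 22 alternatives together, 3 of the 15 vehicle calls and 11 of the 21 NP calls were never lost. Apart from leaving out libraries, 4 of the 15 vehicle calls and 11 of the 21 NP calls passed in all 10 other alternatives. Limma on unfiltered values ended each of the 11 and 10 calls that did not. All 3 limma fits ended Col8a2, Col15a1, Col17a1 and Col18a1 under vehicle and Col17a1, Col24a1 and Col28a1 under NP. The replicate block ended Col6a1 under vehicle (adjusted p = 0.0586) and Col14a1 under NP (adjusted p = 0.0547). Col5a3 under vehicle gained a call with DESeq2 or the replicate block, Col7a1 under NP with DESeq2 or only the 8 libraries compared, Col6a4 under NP with DESeq2, and Col6a3 under vehicle with limma. No chain ratio passed after adjustment, and with a library left out the smallest exact p is larger still, so recomputing the ratios says nothing about their stability. Mouse numbers do not pair the mice. After each gene's group mean was subtracted from log2 CPM, same-numbered libraries correlated at −0.0744 to 0.148. Most correlated best with a library of another number. With mouse number as a replicate block the counts were 15, 20 and 0. The median of all genes moved by under 0.1 under every scaling. The 95% intervals of Col10a1 and Col11a1 reach more than 1 on the log2 scale to either side of the estimate.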
